A study of Caenorhabditis elegans with 2 samples.

Results

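The Caenorhabditis elegans genes considered here are all genes of biotype miRNA in the WBcel235 annotation (Ensembl release 115), apart from the 7 genes of the mir-51 family. They number 254 of 46890 annotated nuclear genes. A gene was taken to be near a COG-1 peak when a summit, the position of highest signal of a peak, lay within 500 bp of its annotated span. The rule used positions in the annotation and no measured value. Of the 254 genes, 93 lay wholly inside an intron of a protein-coding gene, 149 overlapped no protein-coding gene and are called intergenic, and 12 overlapped an exon. The annotated span is the hairpin for most of them, with a median length of 95 bp, and 4 genes, let-7 among them, had a span of over 160 bp.

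MicroRNAs are short RNAs that guide Argonaute proteins to partly complementary messenger RNAs and lower their translation and stability. A long primary transcript is cut by the nuclear Drosha complex into a hairpin, which Dicer cuts into a duplex of a 5p and a 3p arm. Bases 2 to 8 of the mature strand, the seed, set most of the target choice, so genes that share a seed are grouped as a family. Many worm microRNA genes sit inside introns and some have a promoter of their own there. COG-1 itself is a known target of a microRNA, lsy-6, in the ASE taste neurons, where the pair sets apart the left from the right cell.

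The values come from ChIP-seq, in which DNA bound by a protein is precipitated with it and sequenced. The protein was COG-1, an NK6-type factor that binds DNA through a homeodomain. There was 1 group with 2 biological replicates: whole hermaphrodite mid-embryos of strain OP541, genotype unc-119(tm4063) III; wgIs541, taken 3 h after synchronization by egg bleaching. The integrated transgene wgIs541 expresses COG-1 with GFP-FLAG at its C-terminus, and precipitation was with an antibody against GFP. Tagged protein is present beside whatever the native locus makes, chromatin of all embryonic cells is mixed, and no untagged or input sample was among those analysed here, so no contrast between conditions could be tested. The labels call the samples biological replicates and do not say whether they were separate cultures.

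The thresholded list held 1841 peaks and rests on the irreproducible discovery rate (IDR), which compares the ranking of regions between replicates. The relaxed lists also hold background and had 21617 (replicate 1), 20247 (replicate 2) and 22583 (pooled) regions. A q-value under 0.05 was found in 2033, 3522 and 2976 of them in that order. Ordering the pooled list by signal and keeping its first 1841 regions gave the same IDR peaks, with signals from 77.7 to 769, so membership does not by itself show that a peak was strong in each replicate. The signal is the authors' own value per peak, and ranks count from 1 at the highest signal of a list. Positions are those of ce11, counted from 1.

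The mature sequences that place the conserved genes near a peak in their seed families were read from the WBcel235 genome of RefSeq at the annotated positions. They are written 5′ to 3′ with the seed in capitals, and mir-72, mir-64 and mir-62, which had no IDR peak within 500 bp, are shown for comparison.
mir-58.1 3p: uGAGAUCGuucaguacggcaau
mir-80 3p: uGAGAUCAuuaguugaaagccga
mir-73 3p: uGGCAAGAuguaggcaguucagu
mir-74 3p: uGGCAAGAaauggcagucuaca
mir-72 5p: aGGCAAGAuguuggcauagcuga
mir-229 5p: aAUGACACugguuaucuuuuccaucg
mir-64 5p: uAUGACACugaagcguuaccgaa
mir-90 3p: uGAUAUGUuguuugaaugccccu
mir-62: uGAUAUGUaaucuagcuuacag
mir-58.1 and mir-80 shared bases 2 to 7 and differed at base 8, and the bases 2 to 7 they share were found in 7 of the genes. mir-73 and mir-74 shared a full seed with mir-72, mir-229 with mir-64, and mir-90 with mir-62. Of the 15 genes near a peak, 8 had a seed also held by another of the 254 genes, as did 103 of all of them. No mature sequence among 445 had a seed of the mir-51 family.

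The DNA around the summits of 6 of these peaks is given next, since it shows the GA repeats that were the most frequent of the longer motifs searched. Each sequence is the plus strand of WBcel235 from 50 bp before to 50 bp after the summit. Capitals mark every match, on either strand, to the motifs searched. These were the homeodomain core TAATTA, its longer form TTAATTA and its shorter form TAAT, the E-box CACGTG and the GA repeat GAGAGA.
mir-5549 peak, chrIII:6972046-6972146: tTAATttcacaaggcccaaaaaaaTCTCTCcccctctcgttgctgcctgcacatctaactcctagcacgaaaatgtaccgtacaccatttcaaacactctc
mir-90 peak, chrIII:8874297-8874397: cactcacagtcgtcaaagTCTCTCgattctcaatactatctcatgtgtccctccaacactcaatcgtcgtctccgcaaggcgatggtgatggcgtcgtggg
mir-229 peak, chrIII:2172039-2172139: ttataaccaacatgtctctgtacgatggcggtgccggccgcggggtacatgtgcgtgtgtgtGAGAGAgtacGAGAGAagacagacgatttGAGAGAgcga
mir-58.1 peak, chrIV:3232888-3232988: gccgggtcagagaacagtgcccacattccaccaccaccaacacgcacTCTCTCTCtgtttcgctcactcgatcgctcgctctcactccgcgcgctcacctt
mir-80 peak, chrIII:8865454-8865554: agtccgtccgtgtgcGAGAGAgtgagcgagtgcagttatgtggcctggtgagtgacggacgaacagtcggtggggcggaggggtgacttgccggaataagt
mir-73 and mir-74 peak, chrX:2368551-2368651: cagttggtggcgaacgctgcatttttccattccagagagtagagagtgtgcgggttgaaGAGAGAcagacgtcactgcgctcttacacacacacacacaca

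Few microRNA genes lay near a peak. By count, the share was close to that of all annotated genes but below that of protein-coding genes. An IDR summit lay within 500 bp of 15 of the 254 genes (5.91%, exact Clopper-Pearson 95% interval 3.34% to 9.55%), against 5.75% of all annotated nuclear genes. The 15 genes were served by 13 distinct peaks, and neighbouring genes share a peak, so the interval covers counting error only. By class of gene, a summit lay as near to 8.26% of protein-coding genes, 9.3% of snRNA genes, 22.8% of snoRNA genes and 25.5% of tRNA genes. It did so for 7.7% of unclassified non-coding RNA genes, 8.76% of long intergenic non-coding RNA genes and 8% of antisense RNA genes. The share was 0.987% of pseudogenes and 0 of 20 rRNA genes. It was 0.866% of the 15363 piRNA genes, which are part of the 46890 and lower the share over all genes. All 7 genes of the mir-51 family (100%) lay near a peak. These classes differ in length and in how they cluster, and the differences were not tested.

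**Figure D1:**
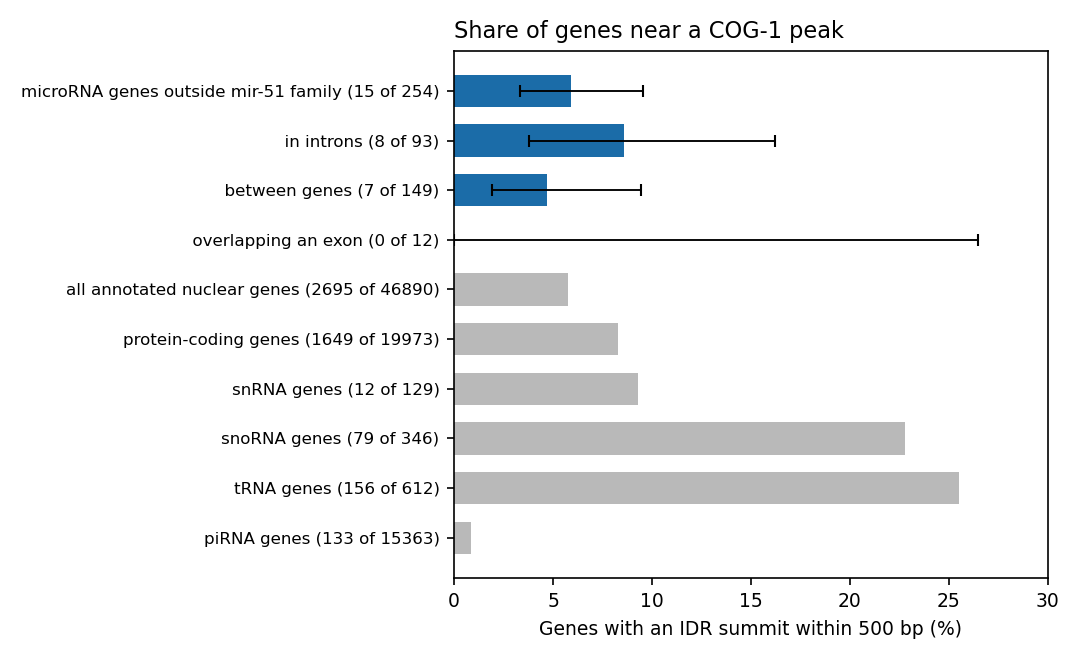
Share of genes (x axis, percent) with an IDR summit within 500 bp, for the microRNA genes and their classes (blue) and for other annotated genes (grey). Horizontal lines are exact 95% binomial intervals of the microRNA shares; the bar for all 254 genes (5.91%) is slightly longer than that for all annotated nuclear genes (5.75%).

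Set against positions rather than genes, the background share differed by class. Of all stretches of 95 bp, 1.94% in the nuclear genome, 1.42% within introns and 2.75% in intergenic sequence lay within 500 bp of an IDR summit. Among intronic microRNA genes 8 of 93 lay near a peak (8.6%, interval 3.79% to 16.2%), and among intergenic ones 7 of 149 (4.7%, interval 1.91% to 9.44%). The intervals of both classes overlap widely. The intronic interval lies above the share for intron stretches, while the intergenic interval includes that for intergenic stretches. Clustered genes are not independent and the intervals cover counting error only, so neither difference was tested. Within 250 bp of a summit lay 3 of the 93 intronic genes (3.23%). None of the 12 genes that overlap an exon lay near a peak, and 3 counts of 12, taken as the limit for a count of 0, correspond to a share of 25%, with an exact interval up to 26.5%.

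The shares on either strand of the host had widely overlapping intervals. A peak was near 5 of the 66 intronic genes on the host's strand (7.58%, interval 2.51% to 16.8%) and 3 of the 27 on the opposite strand (11.1%, interval 2.35% to 29.2%). By chromosome, peaks were near 2 of 33 genes on I, 5 of 49 on II, 4 of 27 on III, 1 of 47 on IV, 0 of 28 on V and 3 of 70 on X. The shares of all annotated genes near a peak were 10.8% on I, 8.16% on II, 10.1% on III, 2.52% on IV, 4.51% on V and 9.55% on X. These shares count genes of every class, and chromosome IV alone holds 19704 of the 46890 genes. The same limit of 3 counts for the 0 of 28 genes on chromosome V is a share of 10.7%, with an exact interval up to 12.3%.

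Most of the 254 genes were far from any peak. Their median distance to the nearest IDR summit was 14236 bp, with 12980 bp for intronic and 16760 bp for intergenic genes. The median was 23821.5 bp over all annotated nuclear genes, which include 15363 piRNA genes that are seldom near a peak, and 20207 bp over protein-coding genes. A summit was over 10 kb away for 151 of the 254 genes, and 27 had their nearest summit beyond 500 bp and up to 2000 bp away. Just inside the limit were mir-74 at 442 bp and mir-229 at 363 bp. Just outside it were mir-1 at 616 bp, mir-5550 at 727 bp and mir-64 at 759 bp.

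The summits near microRNA genes lay mostly on the 5′ side of the hairpin. Within 500 bp an IDR summit was upstream of 13 genes (5.12% of 254), downstream of 2 (0.787%) and inside 0. Over all annotated nuclear genes the shares were 3.04% upstream and 1.21% downstream, and over protein-coding genes 5.11% and 1.31%. A summit lay inside 803 of the 46890 annotated genes and inside 419 of the 19973 protein-coding genes. For snoRNA genes the shares were 19.1% upstream and 2.31% downstream, and for tRNA genes 7.84% and 5.88%. A lean to the upstream side was thus not particular to microRNA genes. Beyond 500 bp and up to 1000 bp, there were 5 microRNA genes with a summit upstream and 6 with it downstream, and beyond 1000 bp and up to 2000 bp there were 14 and 8. Pooled regions with a q-value under 0.05 lay within 500 bp upstream of 20 genes (7.87%) and downstream of 5 (1.97%), against 4.53% and 1.92% of all genes. Pooled regions of any strength lay upstream of 70 (27.6%) and downstream of 39 (15.4%), against 16.4% and 13.1%. Both strands of the mir-8186 hairpin are annotated as genes, so its peak counts once on each side by construction.

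**Figure D2:**
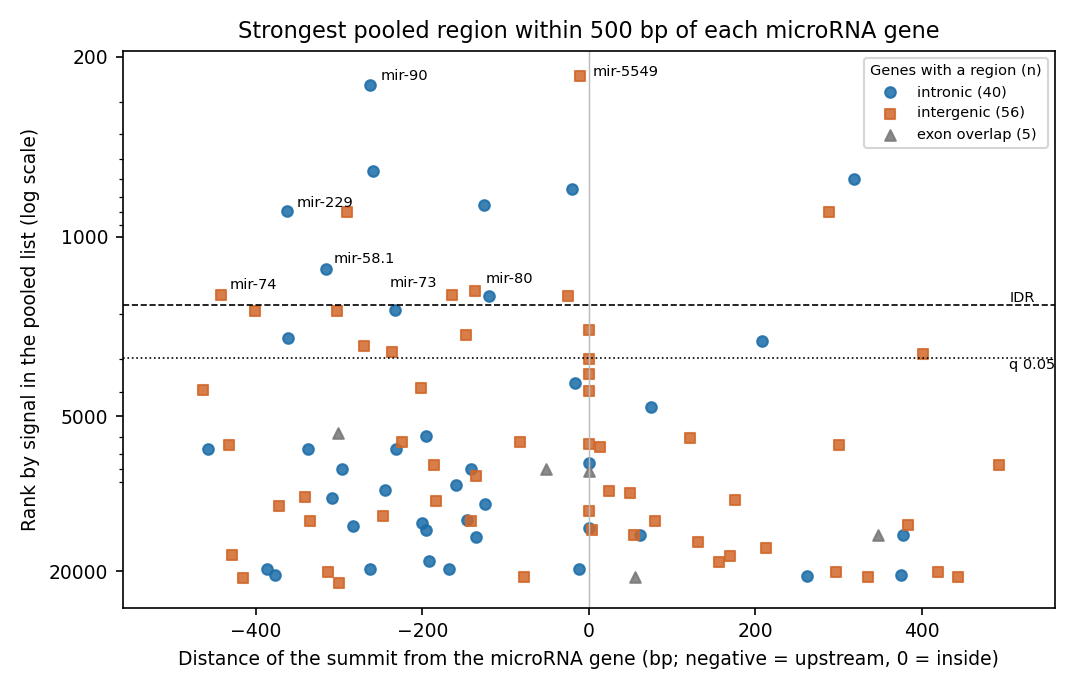
Rank by signal in the pooled list (y axis, log scale, strongest at the top) against distance of the summit from the hairpin (x axis, bp, negative upstream) for the strongest pooled region within 500 bp of each of 101 microRNA genes. The dashed line is the lower end of the 1841 IDR peaks and the dotted line the lower end of the 2976 pooled regions with q under 0.05; above the dashed line 13 of the 15 genes have the summit upstream.

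Among the conserved families, the bantam-like microRNAs are abundant worm microRNAs known to act on body size through TGF-β signalling. A peak was near 2 of the 5 genes listed as this family, against 5.75% of all annotated nuclear genes. With so few genes this count says little beyond the genes named. The gene mir-58.1 (chrIV:3233254-3233350, plus strand) lies in an intron of Y67D8A.2 on the same strand, and its summit was 316 bp upstream of the hairpin at position 3232938. That peak had a signal of 91.9 and rank 1338 in the pooled list, rank 822 (signal 52.1, q = 0.00054) in replicate 1 and rank 1990 (signal 43.7, q = 0.000754) in replicate 2. The nearest protein-coding start, that of Y67D8A.2, was 10498 bp from this summit. Here and below, a start is the 5′ end of the annotated gene span. Starts of other transcripts inside a host were not searched, so a peak far from this start may still lie near one of them.

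The intergenic gene mir-80 (chrIII:8865270-8865367, minus strand) had its summit 137 bp upstream, at position 8865504. The signal was 83.5 and the rank 1634, with rank 1362 (signal 41.4, q = 0.0107) in replicate 1 and rank 2959 (signal 35.1, q = 0.0225) in replicate 2. The peak was among the 1841 strongest regions of replicate 1 and ranked below them in replicate 2. The other bantam-like genes mir-58.2, mir-81 and mir-82 had their nearest IDR summit at 11629, 1546 and 2533 bp. The genes mir-58c and mir-2209.1, which hold the same bases 2 to 7 but were not on the list, had theirs at 11802 and 14515 bp. So a peak was near 2 of the 7 genes with these bases, against 5.75% of all annotated nuclear genes.

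The genes mir-73 and mir-74, of the seed group of mir-72, stand next to each other on chromosome X and shared a peak. Its summit at position 2368601 was 164 bp upstream of mir-73 (chrX:2368765-2368863, plus strand) and 442 bp upstream of mir-74 (chrX:2369043-2369139, plus strand). The signal was 81.7 at rank 1690, with rank 1349 (signal 41.5, q = 0.0108) in replicate 1 and rank 2377 (signal 39.8, q = 0.00316) in replicate 2. The summit also lay inside the annotated non-coding RNA gene T24D8.11, and the nearest protein-coding start was 2611 bp away. The unlinked gene mir-72 was 112165 bp from an IDR summit.

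In the mir-64 group, mir-229 leads a cluster with mir-64, mir-65 and mir-66 inside an intron of gcn-1, a homologue of the yeast translation regulator GCN1. The summit at position 2172089 was 363 bp upstream of mir-229 (chrIII:2172452-2172566, plus strand) and 20144 bp from the start of gcn-1. The signal was 118 at rank 799, with rank 1086 (signal 45.9, q = 0.0023) in replicate 1 and rank 626 (signal 76.4, q = 0.000306) in replicate 2. The same summit was 759, 913 and 1019 bp upstream of mir-64, mir-65 and mir-66. So the peak sits before the cluster, and of its genes only mir-229 was within 500 bp.

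The gene mir-90, which shares a seed with mir-50 and mir-62, had the peak of next-highest signal after mir-5549 among the 13. It lies in an intron of K01F9.2 on the same strand (chrIII:8873987-8874084, minus strand), with the summit 263 bp upstream at position 8874347. The signal was 186 at rank 257, with rank 125 (signal 101, q = 0.00054) in replicate 1 and rank 511 (signal 84.4, q = 0.000306) in replicate 2. Both q-values are the lowest that each replicate's list holds, and the peaks at mir-5549, mir-4929 and mir-5595 have the same values. The nearest protein-coding start, of K01F9.2, was 2781 bp away. The other genes of this seed, mir-50 and mir-62, were 19363 and 22060 bp from an IDR summit.

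**Figure D3:**
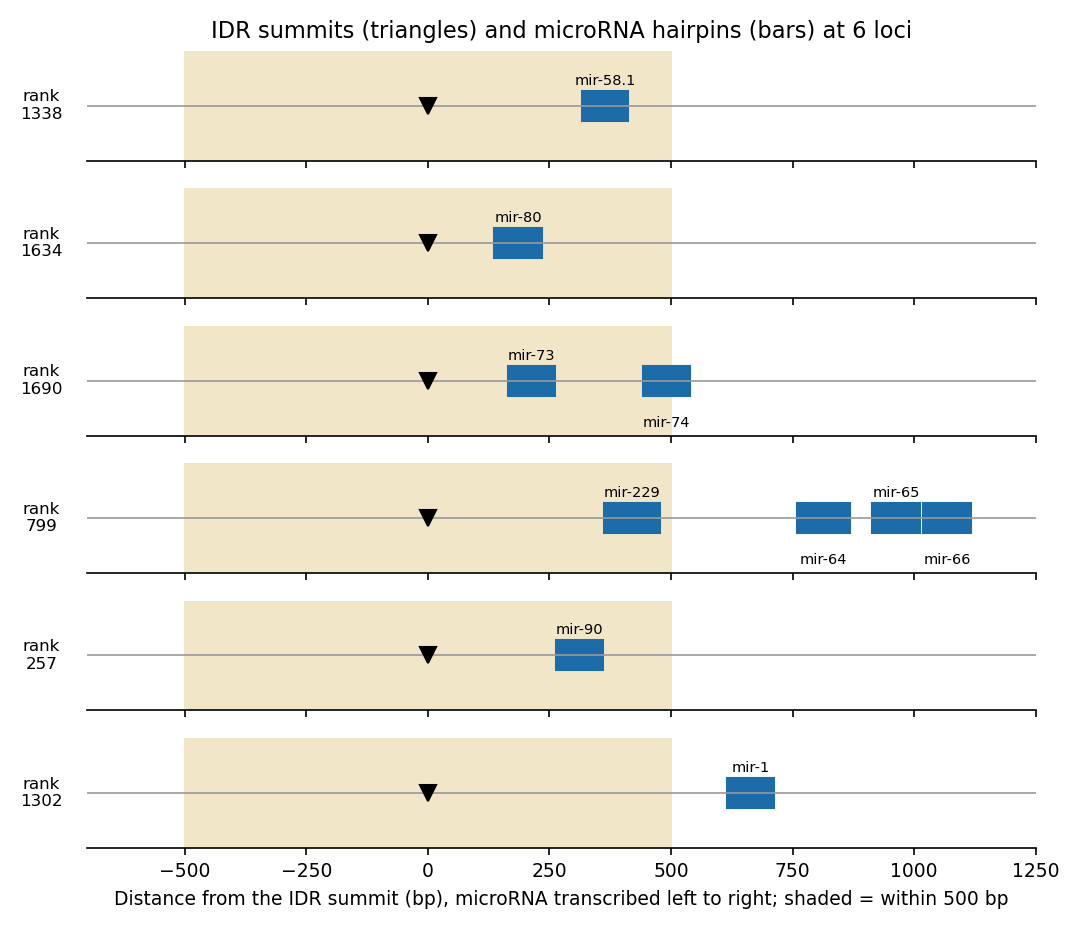
Hairpins (blue bars) by distance from an IDR summit (triangle at 0; x axis, bp) at 6 loci, drawn in the direction of microRNA transcription, with the peak's rank at the left. In the 5 upper loci a hairpin lies within the shaded 500 bp, while mir-1 lies at 616 bp and mir-64, mir-65 and mir-66 at 759 to 1019 bp.

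The strongest peak of the 13 lay at mir-5549, an intergenic gene (chrIII:6971976-6972085, minus strand). Its summit at position 6972096 was 11 bp upstream, with a signal of 191 at rank 238. In replicate 1 it had rank 192 (signal 90.7, q = 0.00054) and in replicate 2 rank 325 (signal 98.7, q = 0.000306). The same summit was 157 bp upstream of the start of rfc-4, a subunit of the replication factor C clamp loader. It was also in the start window, from 1000 bp upstream to 500 bp downstream of a protein-coding start, of eef-1A.1, which encodes a translation elongation factor. The peak therefore cannot be assigned to mir-5549 rather than to these genes from position alone.

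Peaks at 3 other intronic genes were of middle rank. For mir-4929 (chrII:13461755-13461864), in E01G4.3 on the same strand, the summit was 259 bp upstream with signal 139 and rank 554, rank 497 in replicate 1 and rank 515 in replicate 2. For mir-8192 (chrII:6943885-6944021), in the folliculin gene flcn-1 on the same strand, it was 20 bp upstream with signal 129 and rank 654, rank 1494 in replicate 1 and rank 419 in replicate 2. For mir-5595 (chrII:14399565-14399629), on the opposite strand in nurf-1, a subunit gene of the NURF chromatin remodelling complex, it was 126 bp upstream with signal 121 and rank 751, rank 905 in replicate 1 and rank 573 in replicate 2. None of these 3 summits lay in a protein-coding start window, which is set by the 5′ end of each gene span and leaves out internal transcript starts.

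The intronic genes mir-1824 and mir-2218.1, both on chromosome I and on the strand opposite to their host, had peaks that also lay in protein-coding start windows. The 5p arm of mir-1824 holds the seed of mir-34. The summit near mir-1824 (chrI:13513955-13514047) was 319 bp downstream of it and 76 bp upstream of the start of its host Y87G2A.18, with signal 135 and rank 595, rank 1194 in replicate 1 and rank 469 in replicate 2. The summit near mir-2218.1 (chrI:13812596-13812655) was 120 bp upstream of it and 208 bp upstream of the start of maea-1, with signal 81.4 and rank 1700, rank 1942 in replicate 1 and rank 1866 in replicate 2. The first summit was thus nearer to a protein-coding start and the other nearer to the hairpin.

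The remaining intergenic genes near a peak were the mir-8186 pair and mir-8196.1. The genes mir-8186.1 and mir-8186.2 are opposite strands of nearly the same stretch (chrII:18638-18698 and chrII:18637-18697). Their summit lay 289 and 290 bp away and 551 bp upstream of gmeb-1, with signal 118 and rank 800, rank 1433 in replicate 1 and rank 502 in replicate 2. For mir-8196.1 (chrX:2328994-2329124) the summit was 25 bp upstream, inside the long non-coding RNA gene linc-154, with signal 81.3 and rank 1705. It had rank 2756 (signal 30.4, q = 0.151) in replicate 1 and rank 1571 (signal 49.5) in replicate 2, and was the only peak of the 13 without q under 0.05 in both replicates.

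The strength of the 13 peaks was close to the middle of the list. Their median signal was 118 and median rank 799, against 111 and 921 over all IDR peaks. Each of the 13 summits was covered by a region in either replicate's own list, and 12 had q under 0.05 in both. Replicate 1 gave the better rank at 6 peaks and replicate 2 at 7. The signals of the replicates were only weakly correlated over the 13 peaks (Spearman rank correlation 0.264). All 13 come from the top of the pooled list by signal, and no value over all IDR peaks is given. The correlation therefore does not set these peaks apart. In all, 4 of the 13 summits lay in a protein-coding start window, and 0 lay within 500 bp of a tRNA, snoRNA, snRNA or rRNA gene. Unclassified non-coding RNA genes lay that near to the summits at mir-58.1 (Y67D8A.6), mir-80 (K01F9.6), mir-90 (K01F9.7) and mir-73 with mir-74 (T24D8.11 and others).

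**Figure D4:**
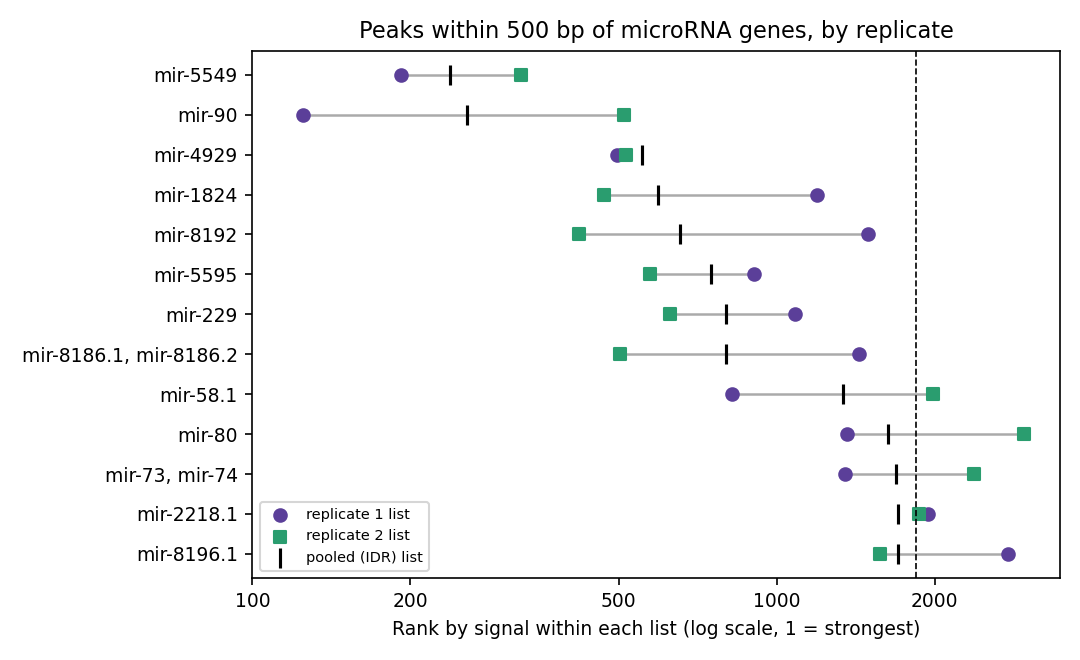
Rank by signal (x axis, log scale, 1 is strongest) of each of the 13 peaks in the lists of replicate 1 (circles), replicate 2 (squares) and the pooled reads (bars), ordered by pooled rank. The dashed line marks rank 1841, the size of the IDR list. The peaks at mir-5549, mir-90 and mir-4929 lie well to its left in both replicates. Past it are mir-58.1, mir-80 and mir-73 with mir-74 in replicate 2, mir-8196.1 in replicate 1, and mir-2218.1 in both.

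The 1841 strongest regions of each replicate, used alone, picked partly other genes. With the list of replicate 2 there were 14 microRNA genes near a region, 10 of them shared with the IDR list, against 5.7% of all genes. The genes lost were mir-58.1, mir-73, mir-74, mir-80 and mir-2218.1, and those gained were mir-2, mir-2218.2, mir-4934 and mir-8201. With the list of replicate 1 there were 16, of which 13 were shared, against 5.64% of all genes. Here mir-2218.1 and mir-8196.1 were lost, and mir-42, mir-43 and mir-57 were gained. The genes in both replicates' lists and in the IDR list were therefore those at the 8 peaks of highest signal of the 13.

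With weaker regions counted as well, microRNA genes had a region nearby about as often as all annotated genes, piRNA genes included. The pooled list also holds the IDR peaks, so its counts include the 15 genes near an IDR peak. A pooled region with q under 0.05 lay within 500 bp of 25 genes (9.84%, interval 6.47% to 14.2%), against 8.51% of all annotated nuclear genes. These were 11 of the 93 intronic genes (11.8%) and 14 of the 149 intergenic genes (9.4%), while 3.09% of 95 bp stretches in the genome, 2.38% in introns and 4.33% in intergenic sequence lay as near. Regions with q under 0.05 in replicate 1 were near 17 genes (6.69%), against 6.13% of all genes, and those in replicate 2 near 31 (12.2%), against 9.51%. There were 15 genes with such a region in both replicates, which are the genes at 12 of the 13 IDR peaks and mir-42. A pooled region of any strength lay near 101 genes (39.8%), against 37% of all genes. It lay near 40 intronic (43%) and 56 intergenic (37.6%) genes, against 23.2% of 95 bp stretches in introns, 25.5% in intergenic sequence and 21.4% in the whole genome. In replicate 1 a region of any strength was near 87 genes (34.3%), against 37% of all genes, and in replicate 2 near 93 (36.6%), against 34.5%. The strongest such region had a median rank of 8116 of 22583. For 126 of the 254 genes no region of the pooled or replicate lists lay within 500 bp, and for 57 each replicate had one.

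A pooled region of q under 0.05 without an IDR peak was found at 10 genes. For mir-2, homologous to a Drosophila microRNA family and lying in an intron of ppfr-1, the region ranked 1923 (q = 0.00286), with rank 2679 (q = 0.142) in replicate 1 and rank 1719 (q = 0.000873) in replicate 2. For mir-42 and mir-43, which head the cluster of mir-42 to mir-44, a shared region 302 and 401 bp upstream ranked 1939 (q = 0.00335), with rank 1248 (q = 0.00842) in replicate 1, while replicate 2 had a region near mir-42 at rank 3302 (q = 0.0356). For mir-57, known for its part in posterior embryonic patterning, a region 148 bp upstream ranked 2410 (q = 0.011), with rank 1357 (q = 0.0107) in replicate 1 and rank 5448 (q = 0.251) in replicate 2. Of the 10 genes, mir-42 was the only gene with a region of q under 0.05 within 500 bp in both replicates.

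For mir-124, a microRNA enriched in ciliated sensory neurons and lying in an intron of trpa-1, the region lay 208 bp downstream and ranked 2541 (q = 0.0163). The strongest region of replicate 1 was 200 bp downstream (rank 3117, q = 0.206), while that of replicate 2 was another region, 292 bp upstream (rank 2266, q = 0.00154). Replicate 2 also had a region 211 bp downstream (rank 3485, q = 0.0472). For mir-79, of the seed group of mir-75, the region ranked 2815 (q = 0.0368), with q = 0.0852 in replicate 1 and q = 0.0214 in replicate 2. The other genes were mir-4934 with a summit inside the hairpin (rank 2306), mir-8201 in the linker histone gene hil-2 (rank 2481), mir-2218.2 (rank 2674) and mir-8199 (rank 2861). In replicate 1 their q-values ran from 0.181 to 0.857, and in replicate 2 from 0.000306 to 0.0137.

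Of 15 microRNA genes well known from worm genetics, 1, mir-58.1, was near an IDR peak, against 5.75% of all genes. A pooled region with q under 0.05 was near 4 of them (mir-2, mir-57, mir-58.1 and mir-124), against 8.51% of all genes, and some pooled region was near 13, against 37%. The list is short and these counts say little beyond the genes named. For lsy-6, which represses cog-1 in the left ASE neuron, the nearest IDR summit was 68673 bp away. A pooled summit lay inside the hairpin of lsy-6 at rank 11698 of 22583 (q = 0.794), and neither replicate had a region within 500 bp. For lin-4, which times early larval fates, the nearest IDR summit was 57211 bp away and the nearest pooled region ranked 12593 (q = 0.823).

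For let-7, which times the larval to adult transition, the annotated span is that of a longer transcript, 1896 bp from an IDR summit, and its strongest pooled region ranked 8116 (q = 0.597). For the muscle microRNA gene mir-1, an IDR summit of rank 1302 lay 616 bp upstream, outside the limit used. For mir-71, a lifespan regulator in an intron of ppfr-1, an IDR summit of rank 1832 was 1459 bp upstream. The distance was 2792 bp for the intestinal mir-60, 4999 bp for mir-237 of the lin-4 family, and 7751 bp for mir-235. It was over 10 kb for mir-34, mir-124, mir-228 and mir-273.

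Among the other seed families, counts are given beside the shares of all genes. These are 5.75% near an IDR peak, 8.51% near a pooled region with q under 0.05 and 37% near any pooled region. None of the 7 let-7 family genes had an IDR peak or a region with q under 0.05, and 1 of them, let-7 itself, was near any pooled region. None of the 8 genes of the mir-35 family, which is needed for embryonic development, had an IDR peak. All 8 lay near pooled regions of any strength, which neighbours share. In that family the region at mir-35, mir-36 and mir-37 ranked 6705 (q = 0.489) and the region at mir-38 to mir-41 ranked 19500 (q = 0.938), so only mir-42 had a region with q under 0.05. In the mir-2 family 2 of 4 genes, mir-2 and mir-43, had a region with q under 0.05. The lin-4, mir-44, mir-46, mir-49 and mir-238 groups had no region with q under 0.05.

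The homeodomain core, which few windows of all IDR peaks hold, was not seen in the summit windows of these peaks. TAATTA was in 0 of 13 windows of 101 bp, against 2.66% of all 1841 IDR peaks, and TTAATTA in 0 against 1.36%. At shares this low, 0 of 13 does not set these peaks apart. The shorter TAAT, contained in both, was in 6 of 13 (46.2%) against 38.8%. The GA repeat GAGAGA was in 8 of 13 (61.5%) against 28.9%, and the 6 windows printed above were chosen from those 8. CACGTG was in 1 of 13 (7.69%), at mir-4929, against 2.72%. The median GC content of the windows was 52.5% against 47.5%. These are matches of letters in a handful of windows and were not tested.

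Genes listed for the microRNA pathway, which include developmental timing genes such as lin-46, held peaks more often by count only in a wide start window. In a narrower window their share was below that of protein-coding genes at large. Of 28 listed genes of the pathway, 27 were matched in the annotation, and 7 (25.9%, interval 11.1% to 46.3%) had an IDR summit from 1000 bp upstream to 500 bp downstream of the start, against 6.82% of protein-coding genes. With a window from 500 bp upstream to 250 bp downstream, 1 gene (3.7%) did, against 5.41%. A pooled region with q under 0.05 lay in the wide window of 12, against 10.4% of protein-coding genes.

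The processing genes drsh-1 and pash-1, of the Drosha complex, and dcr-1, which encodes Dicer, held no IDR peak in the window. Of the Argonaute genes, alg-1 and alg-2 held none, while alg-5 held a peak of signal 392 and rank 13, 789 bp upstream, with rank 33 in replicate 1 and rank 7 in replicate 2. That summit was 119 bp from the start of his-68, a histone gene. Among effectors, ain-1, a GW182 protein gene, held a peak of rank 77 (signal 269, 978 bp upstream, ranks 55 and 94 in replicates 1 and 2), and no other protein-coding start was nearer.

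For nhl-2, a TRIM-NHL cofactor of the silencing complex, the peak had rank 89 (signal 254, 827 bp upstream, ranks 87 and 109), and the start of tag-340 was nearer at 596 bp. For vig-1, a silencing complex component, the rank was 368 (signal 162, 416 bp upstream, ranks 248 and 562), and for cgh-1, a DEAD-box RNA helicase, 685 (signal 126, 753 bp upstream, ranks 950 and 636). Both were nearest to their own start. The peaks of lin-46, a developmental timing gene (rank 897, signal 112), and ran-1, a nuclear transport GTPase gene (rank 919, signal 111), were nearer to R186.8 at 48 bp and dkc-1 at 176 bp. So 3 of the 7 pathway peaks, those of ain-1, vig-1 and cgh-1, had the pathway gene as the nearest protein-coding start.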

How the data were processed

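The authors' ce11 lists were used: an IDR list, a pooled list and 1 list per replicate. Per the deposited files, each region has a signal value and a q-value on the −log10 scale; how signal scales with depth, which aligner and caller (with versions) were run and which IDR threshold was set are not given in the sources used here. Signal deposited by the authors was used only to rank regions within a list, and −log10 q deposited by the authors was turned back into q. Read depth was not used, so precision rests on numbers of genes and peaks. The lists of the older build were not used and no coordinates were moved.

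Summits are start plus offset, counted from 1. The start of a protein-coding gene was the 5′ end of its annotated span, and starts of its other transcripts were not used. Genes came from Ensembl release 115 and sequences from the RefSeq WBcel235 genome; all 254 genes matched RefSeq by gene ID. Shares have exact Clopper-Pearson 95% intervals, beside the same count over all genes and all 95 bp stretches; no test was made, since there is 1 group. Scripts (Python 3.11.15, pandas 2.3.3, numpy 2.4.6, scipy 1.17.1) were tested on simulated data. Every gene near an IDR peak, the 3 nearest beyond 500 bp, genes with a pooled region of q under 0.05, well-studied genes, listed families and pathway genes with a peak were named. The members, lists and motifs were chosen with earlier results of these data known.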

Additional observations from a re-analysis of the deposited data

How the results depend on the processing

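The count of microRNA genes near a peak depended mainly on distance and on the list. It was 7 with summits within 250 bp, 23 within 1000 bp and 42 within 2000 bp (4.22%, 7.35% and 10.2% of all genes), 7 where the peak region had to overlap the gene, 9 with the stronger part of the peaks by signal, and 25 with pooled regions of q under 0.05. Intronic genes numbered 3 within 250 bp, 20 within 2000 bp, 3 by overlap and 5 on the host's strand alone. Intergenic genes numbered 4 within 250 bp, 11 within 1000 bp, 20 within 2000 bp, 4 by overlap, 3 with the stronger peaks, 14 with pooled q under 0.05 and 4 without peaks in protein-coding start windows. The count near pooled regions with q under 0.05 was 12 within 250 bp and 38 within 1000 bp. Pathway genes numbered 1 in the narrow window. Fewer or more positions qualify under these settings by construction. With the 1841 strongest regions of a single replicate, counts ranged from 14 to 16 for all genes, 7 to 8 for intronic and 6 to 9 for intergenic genes, and 8 to 9 for pathway genes. With all regions of q under 0.05 of a single replicate, 17 to 31 genes were near. No paired analysis was possible because there is 1 group. Peak numbers limit the precision, and background in the relaxed lists, transgene expression and mixed cell types were not separated from the counts.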
